A study of Mus musculus with 2 samples.

Results

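The 9 genes described here are Hoxa3, Hoxa4, Hoxb3, Hoxb4, Hoxc4, Hoxc5, Hoxc6, Hoxd3 and Hoxd4, members of Hox paralogue groups 3 to 6 whose annotated spans lie close together or inside one another. They were chosen by name, after the Ensembl identifiers in the deposited tables had been stripped of their version and matched to mouse GENCODE symbols, and all 9 were found among the 43346 Ensembl genes and the 39 Hox genes in the tables. The question was how nested Hox genes share sequence and fragments, and how much of each deposited level rests on that sharing. The samples were 2 libraries of total RNA from the hindbrain of B6NCrl mouse embryos at embryonic day 12.5 (e12.5), the rear division of the developing brain, from which cerebellum, pons and medulla arise. Replicate 1 pooled 120 embryos and replicate 2 pooled 88 embryos, both sexes together. Both started from 10 ng of RNA longer than 200 nt with ERCC spike-in RNAs added. No allele or treatment is labelled, there is 1 group, and every difference given below is between 2 pools and not between conditions.

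Hox genes encode homeodomain transcription factors that give cells along the head-to-tail axis their regional identity. They lie in HoxA, HoxB, HoxC and HoxD clusters on separate chromosomes, and genes in the same relative place in their clusters form a paralogue group. Genes of group 3 and group 4 are known to be expressed in the caudal hindbrain, with group 4 starting farther back than group 3, while groups 5 and 6 are known chiefly from the spinal cord and the most caudal hindbrain. Transcripts of neighbouring Hox genes can begin far upstream and read through a neighbour, so that annotated genes of a cluster share exons.

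The homeobox, the part of the gene that encodes the homeodomain, is where paralogues resemble each other most, and fragments could be shared there between clusters. Its coding bases were compared in the GENCODE M21 transcripts on GRCm38 (mm10). Over the whole homeobox of 180 bases, the 9 pairs within a paralogue group shared 77.2% to 93.9% of their bases (median 82.8%). The 27 pairs across groups shared 66.7% to 77.8% (median 71.7%). The longest exact run shared by transcripts of members on different chromosomes was 47 bases. In the deposited tables the effective length was 99 nt below the full length in each of 101568 transcripts that exceed it, which corresponds to a fragment window of 100 nt. No 100-nt window was therefore common to members of different clusters, although matches with mismatches were not searched.

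All 9 genes were expressed at 1 TPM or more in both libraries (TPM, a transcript level corrected for transcript length and for the library's total). Their summed level was 141.18 TPM in replicate 1 and 197.88 TPM in replicate 2. Hoxd3, a group 3 gene, was the highest with 56.63 and 67.27 TPM (62.0 ± 7.52, SD, n = 2). Hoxc4 followed with 28.17 and 48.14 TPM (38.2 ± 14.1, SD, n = 2), and Hoxc5 with 16.12 and 29.37 TPM (22.7 ± 9.37, SD, n = 2). These 3 genes held the same places in both libraries. The ranges of Hoxd3 and Hoxc4 did not overlap, since the highest value of Hoxc4 lay below the lowest of Hoxd3. The ranges of Hoxc4 and Hoxc5 did overlap, since Hoxc5 in replicate 2 lay above Hoxc4 in replicate 1.

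Hoxb3 and Hoxa3, the other members of group 3, were at similar levels. Hoxb3 had 12.31 and 15.39 TPM (13.9 ± 2.18, SD, n = 2), and Hoxa3 had 11.19 and 15.71 TPM (13.4 ± 3.20, SD, n = 2). The order of the pair changed from 1 library to the other, so they did not differ beyond their spread. The same held for Hoxa4, with 5.67 and 10.08 TPM (7.88 ± 3.12, SD, n = 2), and Hoxb4, with 6.30 and 6.53 TPM (6.42 ± 0.163, SD, n = 2). Hoxd4 was lower, with 2.94 and 3.73 TPM (3.34 ± 0.559, SD, n = 2), and Hoxc6 was the lowest, with 1.85 and 1.66 TPM (1.75 ± 0.134, SD, n = 2). Hoxc6 rests on 52 and 43 expected counts, estimated numbers of fragments. Grouped by paralogy, the 3 genes of group 3 held 56.8% and 49.7% of the summed TPM of replicates 1 and 2, and the 4 genes of group 4 held 30.5% and 34.6%.

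**Figure D1:**
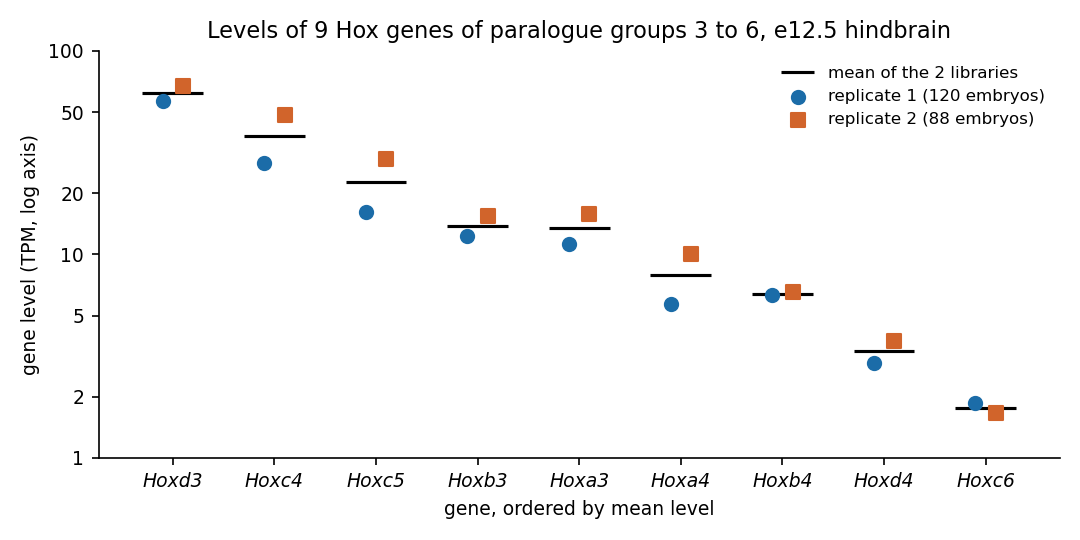
Level of each gene in TPM (log axis) in replicate 1 (circles) and replicate 2 (squares), with the mean as a bar, ordered by mean. Hoxd3 is highest in both libraries and Hoxc6 lowest, and the points of Hoxb3 with Hoxa3, and of Hoxa4 with Hoxb4, overlap.

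Overlap of spans was common, but overlap of exons on the same strand was less so. The spans of the 9 genes formed 28 overlapping pairs, 3 of them between 2 of the 9 and the others with 19 further genes. Only 5 of these pairs shared exonic bases on the same strand, and 9 shared them on opposite strands. The span of Hoxa3 (chr6:52169062-52213336, minus strand) held all of Hoxa4, Hoxa5 and Hoxa6, yet Hoxa3 and Hoxa4 shared 0 exonic bases. The span of Hoxc5 (chr15:102967443-103017429, plus strand) held Hoxc6, Hoxc8 and Hoxc9, and Hoxc5 and Hoxc6 again shared 0 exonic bases. Only the minor transcript Hoxc5-202 (0.99 and 5.89 TPM) reaches across these genes. The leading Hoxc5-201 starts at chr15:103013815, beyond the end of Hoxc6 at 103011881. Hoxd3 (chr2:74711927-74748442, plus strand) and Hoxd4 (chr2:74711929-74729160, plus strand) were the only pair of members with common exons, 388 nt in all. That exonic stretch lay only in the transcripts Hoxd3-203 and Hoxd4-203. Hoxd3-203 held 0.59% and 1.01% of the Hoxd3 TPM, and Hoxd4-203 was listed at 0 in both libraries. Hoxb4 and Hoxc4 overlapped no other gene on either strand.

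The other 4 pairs with exons shared on the same strand involved a neighbour outside the 9. Gm28230, an annotated protein-coding gene at chr2:74726728-74747918, joins exons of Hoxd4 to exons of Hoxd3. It shared 2225 nt with Hoxd3, 53.1% of the exonic length of Hoxd3, and 1154 nt with Hoxd4, 39.1% of the exonic length of Hoxd4. Gm28230 was given 55.19 and 31.54 expected counts, or 0.85 and 0.53 TPM. These counts correspond to 2.16% and 1.20% of those of Hoxd3, but to 61.9% and 31.5% of those of Hoxd4, whose own counts were 89.22 and 100.13. Gm28308, a gene of the same kind in HoxA, shared 482 nt with Hoxa3, and Hoxc10 shared 166 nt with Hoxc5. Gm28308 and Hoxc10 were at 0 counts in both libraries.

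**Figure D2:**
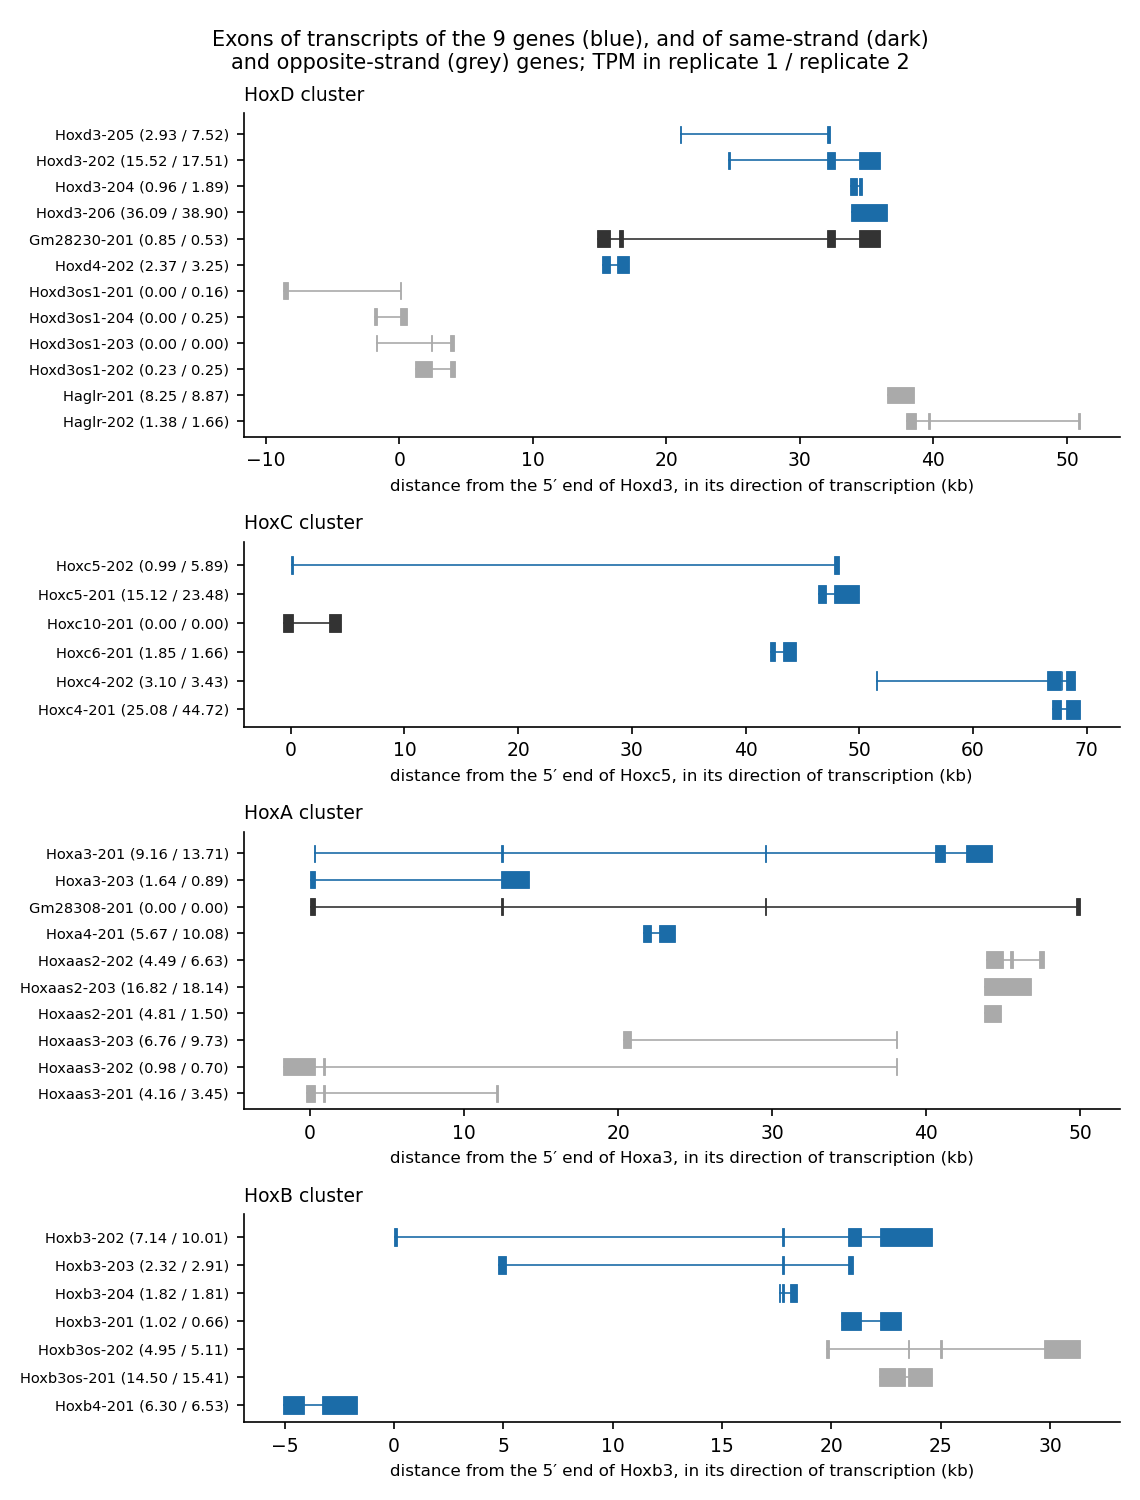
Exons (boxes) of the transcripts of the 9 genes that reached 1 TPM in either library (blue) and of selected genes that overlap them on the same strand (dark) or the opposite strand (grey), as distance in kb from the 5′ end of the named gene, with TPM in replicate 1 / replicate 2 beside each transcript. Not all overlapping genes are drawn: Gm29430, which overlaps Hoxa4 on the opposite strand, Hoxa5, Hoxa6, Hoxc8 and Hoxc9 are among those left out. Gm28230 joins the exons of Hoxd4-202 to those of Hoxd3-202, while the exons of Hoxa4 and Hoxc6 fall in introns of Hoxa3 and Hoxc5.

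Several miRNA genes lie in or beside these spans and are shown for that reason. That of miR-10a lies outside the spans, before Hoxb4, and the others lie inside the span of a member. The sequences are from RefSeq (GRCm38.p6), with the seed, bases 2 to 8, in capitals. miR-10a and miR-10b have the same seed, and miR-196a and miR-615 each have another.
mmu-miR-10b-5p (chr2:74726074-74726096, inside the spans of Hoxd3 and Hoxd4): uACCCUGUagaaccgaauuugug
mmu-miR-10a-5p (chr11:96317186-96317208, 1059 nt before Hoxb4): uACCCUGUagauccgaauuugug
mmu-miR-196a-5p (chr15:102973365-102973386, inside the span of Hoxc5): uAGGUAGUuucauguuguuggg
mmu-miR-615-3p (chr15:103014969-103014990, inside the span of Hoxc5): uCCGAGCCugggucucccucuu
Their entries Mir10a, Mir10b, Mir196a-2 and Mir615 were at 0 counts in both libraries. RNA had been selected above 200 nt, so mature miRNAs were not measured.

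Sharing at the level of a 100-nt window followed the exon maps. Of the distinct windows in the transcripts of each gene, 57.8% in Hoxd3, 41.1% in Hoxd4, 6.49% in Hoxa3 and 2.31% in Hoxc5 also occurred in a transcript of another gene on the same strand. The share was 0 in Hoxa4, Hoxb3, Hoxb4, Hoxc4 and Hoxc6. Of the 4180 windows of Hoxd3, 2128 were shared with Gm28230 and 289 with Hoxd4, and these 289 were the only windows common to any 2 members. Thus 4 of 9 members held a shared window. Of 10840 protein-coding genes at 1 TPM or more in both libraries 14.1% did, as did 3 of 29 other Hox genes, Hoxa2 not being among them. The 9 genes were picked as neighbours with close or nested spans, so this difference was set up by their choice and was not tested. The search covered the 91424 of 103639 Ensembl transcripts whose length was the same in GENCODE M21. These held 76.9% and 76.7% of the TPM of Ensembl transcripts, so a partner among the other transcripts was not looked for.

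With the opposite strand included, the share rose to 49.7% for Hoxb3, 20.7% for Hoxa3 and 10.4% for Hoxa4. It was 57.9% for Hoxd3, and was 0 for Hoxb4, Hoxc4 and Hoxc6. The Hoxb3 windows were shared with Hoxb3os, an antisense transcript that overlaps 2250 nt, or 52.9%, of the exonic bases of Hoxb3. Hoxb3os was given 782.73 and 762.57 expected counts, more than the 490.57 and 601.46 of Hoxb3 itself. Hoxa4 shared its windows with Gm29430, which had only 4.29 and 4.82 counts.

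Whether the deposited counts had been divided between strands is not stated and was not tested, and the counts themselves are described here. A gene whose fragments all match it alone has a whole number of expected counts, whereas divided fragments usually leave a fraction. A whole count also results where all shared fragments are given to a single gene. Hoxb4 (295 and 282), Hoxc4 (1015 and 1595), Hoxc6 (52 and 43) and Hoxc5 (820 and 1213) had whole counts in both libraries, the last despite its 69 windows shared with Hoxc10. Hoxb3 and Hoxa4, which share windows only with opposite-strand genes, had fractional counts in both libraries. Hoxa4 had 160.71 and 263.67.

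Sums over overlapping genes gave the same picture in each cluster. The counts of Hoxb3 together with Hoxb3os and Hoxb2, which Hoxb3os also overlaps, came to 2749.01 and 3069.00. Both sums lie within 0.015 of a whole number, the most that rounding to 2 decimals of the 3 counts allows. In HoxA, the same-strand set of Hoxa3, Hoxa4, Gm28308 and Hoxa2, the last linked to Hoxa3 only through Gm28308, summed to 1988.15 and 2526.45. The 9 genes linked on either strand summed to 3607.99 and 4158.99. In HoxD, Hoxd3, Hoxd4 and Gm28230 summed to 2703.01 in replicate 1 but to 2753.92 in replicate 2. The 5 genes linked on either strand summed to 3030.01 and 3083.01. The opposite strand was thus needed to reach whole sums in 5 of these 6 combinations of cluster and library, the exception being HoxD in replicate 1. No gene of another cluster was needed to close any of the 3 sums.

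The same contrast held across the genome. Among 10840 protein-coding genes at 1 TPM or more in both libraries, 7487 shared no 100-nt window with another gene on either strand, and 3.98% and 3.99% of them had a fractional count in replicates 1 and 2. Of the 1829 genes that shared windows only with the opposite strand, 78.8% and 78.6% had a fractional count. Of the 1524 that shared windows on the same strand, 76.4% and 75.9% did. Hoxb3, Hoxa3, Hoxa4, Hoxd3 and Hoxd4 have exons that overlap those of opposite-strand genes, where reads cannot be told apart if strand was not used. Whether and how far their values depend on a division of fragments with antisense genes was not tested.

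The authors deposited a posterior SD of the count for each gene, which measures how uncertainly shared fragments were divided under the settings they used. It does not give how far a count would move under another division, such as another strand setting, which was not tested. The posterior SD was 0 in both libraries for Hoxb4, Hoxc4, Hoxc5 and Hoxc6. For Hoxb3 it was 24.51 and 26.31 counts, or 4.99% and 4.37% of the posterior mean count. For Hoxd4 it was 4.16 and 3.86 counts, or 4.66% and 3.84%. For Hoxa3 it was 1.73% and 1.34%, for Hoxa4 0.442% and 0.296%, and for Hoxd3 0.406% and 0.328%. Hoxd3, with the largest share of common windows, thus had a small uncertainty in its total. Over 19181 genes, 15.3% and 15.5% had a posterior SD above 1% of the mean. Only for Hoxb3 was the posterior SD as large as the counting error, which was 4.51% and 4.08% of its count.

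**Figure D3:**
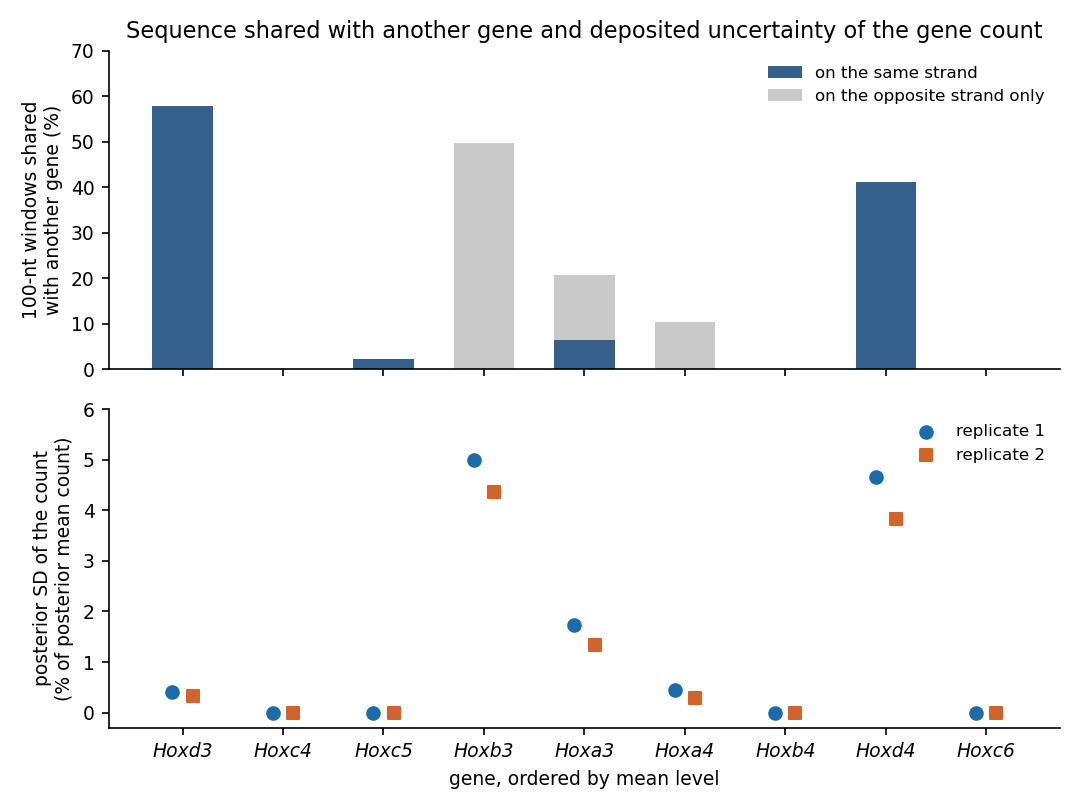
Top, percent of the distinct 100-nt windows of each gene found in another gene on the same strand (blue) or on the opposite strand only (grey); bottom, posterior SD of the gene count as a percent of its posterior mean in replicate 1 (circles) and replicate 2 (squares). Hoxb3 and Hoxd4 have the largest uncertainty, 4.99% and 4.66% in replicate 1, while Hoxd3 with 57.8% shared windows stays at 0.406%.

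The division among transcripts of the same gene was less certain than the gene totals. Of the 26 transcripts of the 9 genes, 18 reached 1 TPM in either library. Hoxd3 was led by Hoxd3-206, a single-exon transcript of 2721 nt annotated as a retained intron. It had 36.09 and 38.90 TPM, or 63.7% and 57.8% of the gene's TPM, from 1795.17 and 1784.34 counts. Hoxd3-202, which is protein coding, had 15.52 and 17.51 TPM, or 27.4% and 26.0%, and Hoxd3-205 had 2.93 and 7.52 TPM. Hoxd3-204 had 0.96 and 1.89 TPM. The 5 protein-coding transcripts of Hoxd3 together had 20.54 and 28.37 TPM (24.5 ± 5.54, SD, n = 2), below the level of Hoxc4 in each library. Hoxd3 therefore ranked first among the 9 genes only with its retained-intron transcript counted. Such a lead was uncommon: of 8103 protein-coding genes with more than 1 transcript and 5 TPM or more in both libraries, 3.16% had it. Genes whose leading transcript had no annotated type were left out of the 8103. The split within Hoxd3 rests on few positions, since only 14.0% of the windows of Hoxd3-206 and 8.12% of those of Hoxd3-202 occur in no other transcript of Hoxd3.

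Hoxc4 was carried by Hoxc4-201, with 25.08 and 44.72 TPM, or 89.0% and 92.9% of the gene. The longer Hoxc4-202, whose first exon lies near Hoxc5, had 3.10 and 3.43 TPM. The higher count of Hoxc4 in replicate 2 lay in Hoxc4-201, with 896.27 and 1473.76 counts, while those of Hoxc4-202 were 118.73 and 121.24. Hoxc5 was led by Hoxc5-201 with 15.12 and 23.48 TPM. Its other transcript, Hoxc5-202, starts with an exon that overlaps Hoxc10 and had 0.99 and 5.89 TPM, from 9.74 and 53.18 counts. The posterior SD of those counts was 10.69 and 16.81, so in replicate 1 the count was no larger than its uncertainty. Because Hoxc5-202 is only 615 nt long, the effective length of Hoxc5 moved from 2682 to 2361 nt, and the TPM of Hoxc5 differed more between libraries than its counts did.

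Hoxa3-201 held 81.9% and 87.3% of Hoxa3, with 9.16 and 13.71 TPM. Hoxa3-203, a retained-intron transcript, had 1.64 and 0.89 TPM. In Hoxb3, Hoxb3-202 led with 7.14 and 10.01 TPM, or 58.02% and 65.03%. Hoxb3-203 had 2.32 and 2.91 TPM, Hoxb3-204 had 1.82 and 1.81 TPM, and Hoxb3-201 had 1.02 and 0.66 TPM. Hoxd4-202 held 80.7% and 87.1% of Hoxd4, with 2.37 and 3.25 TPM, although all of its windows also occur in another Hoxd4 transcript. Hoxa4 and Hoxb4 have 1 transcript each in the tables, Hoxa4-201 and Hoxb4-201, and Hoxc6 was carried by Hoxc6-201 alone. For comparison, 8395 genes had more than 1 transcript and 5 TPM or more in both libraries. The share of their leading transcript differed between the libraries by a median of 3.07 percentage points.

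**Figure D4:**
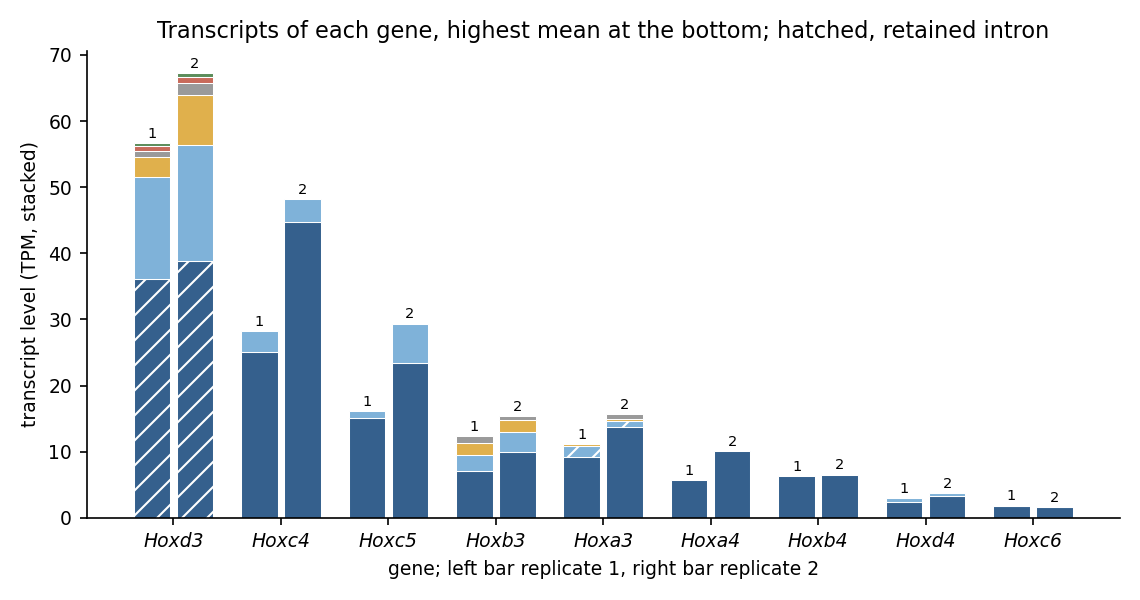
Transcript levels in TPM stacked for each gene, left bar replicate 1 and right bar replicate 2, with the highest transcript at the bottom and retained-intron transcripts hatched. The hatched transcript of Hoxd3 reaches 36.09 and 38.90 TPM, more than the rest of that gene in either library.

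RefSeq promoters, 250 bases before to 50 after a start site, were in the table for 5 of the 9 genes. The listed start of Hoxb4 and Hoxc4 was that of Hoxb4-201 and Hoxc4-201, the leading transcripts. For Hoxa3 the listed start was 48 nt from that of Hoxa3-201, also the leading transcript, with 81.9% and 87.3% of the gene. That of Hoxd4 was the start of Hoxd4-201, which held 19.3% and 12.9% of the gene, and that of Hoxd3 was 66 nt from the start of Hoxd3-203, which held 0.59% and 1.01%. Both strands were searched for TGATNNAT, a PBX-HOX motif, and for the spaced direct repeat bound by retinoic acid receptors. Neither was found in the 5 promoters, and they occurred in 8.85% and 0.00913% of all 32851 promoters.

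Replicate 2 had more fragments of most of the 9 genes. A two-sided exact binomial test of the rounded counts, with library sizes scaled by TMM and Benjamini-Hochberg adjustment over 19209 genes, called 6 of 9 higher in replicate 2 and 0 lower at an adjusted p below 0.05. It holds counting error only and called 20.4% of all genes tested, 10.7% higher and 9.68% lower. The median log2 ratio of the 9 genes was 0.39, against -0.0019 over all genes tested. With the spread estimated from the same 2 libraries in the exact test of edgeR (a biological coefficient of variation of 9.02%), 3 of 9 were called, all higher, where 1.57% of all genes tested were called and 0.942% were higher. The 3 were Hoxa4, Hoxc4 and Hoxc5. That spread comes from the very libraries being compared, with 1 library on each side and no residual replication, so these calls describe the 2 pools and carry no replicate check.

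Hoxc4 had a log2 ratio of 0.75 (counting SE 0.058; adjusted p = 2.57e-37 by the exact binomial test, 0.00979 by the edgeR exact test). Hoxc5, at 0.67 (SE 0.065), had adjusted p-values of 7.25e-23 and 0.0453 by the same exact tests. Hoxa4 had the largest ratio, 0.81 (SE 0.14), with adjusted p-values of 3.25e-07 and 0.0374. These genes of groups 4 and 5 come from 2 clusters, and the counts of Hoxc4 and Hoxc5 are whole, with a posterior SD of 0. Hoxc4 shares no window with another gene. Hoxc5 shares 69 windows with Hoxc10, which was at 0 counts, and whether fragments from them were placed in Hoxc5 was not tested.

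The group 3 genes differed less. Hoxa3 had a log2 ratio of 0.45 (SE 0.086), Hoxb3 of 0.39 (SE 0.088) and Hoxd3 of 0.14 (SE 0.040). Each was called by the exact binomial test (adjusted p = 4.36e-06, 0.000116 and 0.00584) and by the edgeR exact test none was (adjusted p = 0.571, 0.792 and 1). Hoxb4 at 0.04 (SE 0.12), Hoxd4 at 0.27 (SE 0.21) and Hoxc6 at -0.17 (SE 0.30) were called by neither. Whether the ratios of the 9 genes differ from each other was not tested.

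Among the 30 other Hox genes, 14 had enough counts to be tested, 4 were called higher and 2 lower by the exact binomial test, and 1 was called, higher, by the edgeR exact test. Hoxb5, of group 5, had 60.62 and 101.72 TPM and a log2 ratio of 0.73 (SE 0.040), close in size to its paralogue Hoxc5, and was the 1 called by both. Hoxa5 had 43.52 and 67.00 TPM and a ratio of 0.61 (SE 0.049). Hoxa2 and Hoxb2, of group 2, had 44.05 and 58.57 TPM and 47.47 and 59.72 TPM, with ratios of 0.40 and 0.31. Hoxb6 (52.69 and 48.54 TPM) and Hoxa6 (15.24 and 16.52 TPM), the paralogues of Hoxc6, had ratios of -0.13 and 0.10. The genes called lower were Hoxb8 and Hoxb1, which lie outside groups 3 to 6.

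**Figure D5:**
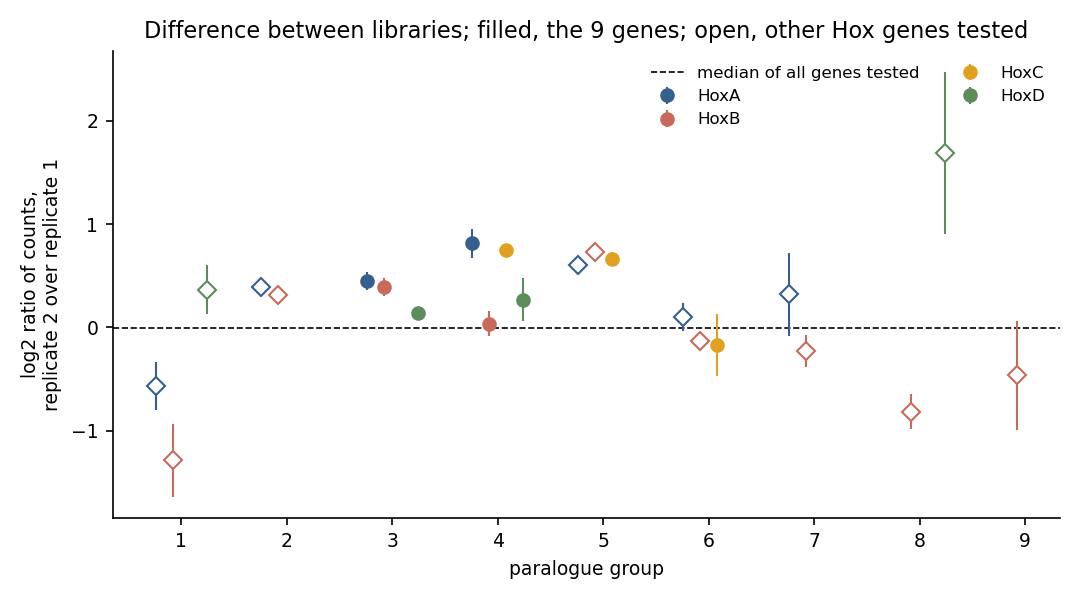
Log2 ratio of counts, replicate 2 over replicate 1, by paralogue group and cluster, with counting standard errors; filled circles are the 9 genes and open diamonds the other Hox genes tested, and the dashed line is the median of all genes tested. Hoxa4, Hoxc4, Hoxc5, Hoxa5 and Hoxb5 lie between 0.61 and 0.81, and the group 6 genes between -0.17 and 0.10. The other group 4 genes, Hoxb4 and Hoxd4, lie at 0.04 and 0.27. The extremes are Hoxd8 at 1.69 and Hoxb1 at -1.29.

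The HOX proteins bind DNA with PBX and with MEIS and PKNOX partners, and all 9 genes of these cofactors were above 10 TPM. Meis1 was highest (141.94 and 165.55 TPM), followed by Meis2 (106.14 and 124.65 TPM), Meis3 (109.98 and 110.83 TPM) and Pbx3 (86.42 and 89.20 TPM). Pbx4 (29.63 and 31.43 TPM), Pknox1 (28.88 and 30.97 TPM), Pknox2 (23.91 and 30.44 TPM) and Pbx2 (14.63 and 15.10 TPM) were lower. Of the 9, 3 were called higher by the exact binomial test and 0 lower, and the edgeR exact test called 0. Of 8 known regulators of group 3 and 4 genes, Rarg (34.33 and 36.86 TPM), Rara (31.47 and 37.88 TPM) and Rarb (21.52 and 20.61 TPM), which encode retinoic acid receptors, were above 10 TPM. Egr2 was at 0.90 and 1.23 TPM, and Cdx2 and Cdx4 had 0 counts. Of the 5 regulators tested, 3 were called higher by the exact binomial test and 0 by the edgeR exact test.

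The libraries also differed in markers of tissues around the hindbrain. All 10 hindbrain markers were at 1 TPM or more in both libraries, with summed levels of 258.53 and 258.34 TPM, against 3 of 8 forebrain markers. The near-equal sums hide differences in both directions, since the log2 ratios of the hindbrain markers ran from -0.69 to 0.49 (median -0.13). Those of the 7 forebrain markers tested ran from -1.74 to 3.67 (median 0.33). All 8 skeletal muscle markers were higher in replicate 2 by both exact tests (summed 60.83 and 280.96 TPM; Myog, a muscle differentiation factor, 6.38 and 29.65 TPM). Of 8 cartilage and sclerotome markers, 7 were higher by the exact binomial test and 4 by the edgeR exact test (631.40 and 676.83 TPM). For 8 mesenchymal markers these numbers were 6 and 0 (1435.45 and 1845.28 TPM). All 8 epithelial and otic markers were lower by the exact binomial test, and 5 by the edgeR exact test (341.04 and 162.34 TPM). Of 8 erythroid markers, 5 were lower and 0 higher by the exact binomial test (10574.3 and 8227.08 TPM), and of 7 ganglion markers tested, 4 were higher and 1 lower (122.08 and 130.40 TPM), with 0 called by the edgeR exact test in either list. No marker of these 6 tissue lists was at 0 counts in both libraries. Their part in the differences of the 9 Hox genes was not tested, and a change in the cells sampled and a change in RNA per cell cannot be told apart in bulk RNA.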

How the data were processed

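The authors deposited a gene table and a transcript table for each of 2 hindbrain libraries, on mm10 with GENCODE M4 annotation per the accompanying notes. The sources used here do not name the aligner, the quantifier or the strand setting. Expected counts, as deposited, are estimated fragments per feature, summing to 31633169 and 29766460 in replicates 1 and 2. The deposited TPM and FPKM values are length-normalised, per the file headers, and FPKM was not used. Transcript shares are deposited as a percent of the gene. The posterior SD and interval bounds, per the file headers, were treated as scores, and the interval bounds were not used.

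Names, exons and transcript sequences came from GENCODE M21 on GRCm38, the assembly of mm10; 42462 of 43346 Ensembl genes were named. The 96 spike-ins and 26249 entries that name no gene stayed out of the tests; these entries held 0.000107% and 0.000114% of the counts and the spike-ins 3.41% and 4.36%. Counts were rounded and compared by an exact binomial test (scipy 1.17.1) with TMM sizes from edgeR 4.0.16, for genes with 10 or more counts summed, with a prior of 0.5 count in log2 ratios. Alternatives were the edgeR exact test with a common dispersion, DESeq2 1.42.0 size factors, library totals, other count filters, other level estimates, other overlap rules and other window lengths. The test was run on simulated counts first. Fractional means farther than 0.001 from a whole number. All 9 members, their transcripts reaching 1 TPM, genes sharing same-strand exons with them, and listed genes with a mean of 10 TPM or more, or the 2 highest, were to be named; marker lists are given as sums. Antisense partners, Myog, Egr2, Cdx2, Cdx4, Hoxb1, Hoxb8 and Hoxb5os fall outside this rule, and they and the sums of counts over overlapping genes were chosen after their values were seen. The members and lists were chosen with earlier results of these data known. The libraries are separate pools per the labels; over 17704 genes with 20 or more counts they differed by 8.81 times counting noise (chi-square per degree of freedom). Counting errors do not cover amplification. Homeodomain residues were not analysed here, and 2 genes of the fixed lists and the homeobox sequences are not reported here.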

Additional observations from a re-analysis of the deposited data

How the results depend on the processing

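Called members numbered 6 by the exact binomial test, and 3 by the edgeR exact test, which lost Hoxa3, Hoxb3 and Hoxd3 as it adds a dispersion; DESeq2 size factors, library totals and filters of 0 or 50 counts kept the count within 1.5 times, and the median log2 ratio moved by less than the SE of the middle gene in 4 of 4 alternatives. Mean TPM moved beyond the SD for Hoxb4 (posterior mean 6.24, without spike-ins 7.10, length of the longest transcript 7.76), Hoxc6 (1.96, 1.94 and 2.12) and Hoxd4 (2.56 with the longest transcript), and not in the other 44 combinations. Those 44 include leaving out 1 library, which cannot move a mean of 2 beyond its SD. Removing spike-ins raised the mean of every gene, so the genes that moved were those with a small SD. No level without overlapping transcripts exists for Hoxa3, Hoxd3 and Hoxd4, all of whose transcripts overlap a gene on the same strand. The share of TPM in overlapping transcripts, 48.8% over all members, was 59.0% on either strand. It became 100% for Hoxa4 and 67.8% for Hoxb3 on either strand, 94.7% for Hoxa3 with 100 or more exonic nt, and for Hoxc5 it went from 13.1% to 2.79% by expected counts. The 13.1% is a mean of unequal libraries, 20.1% without replicate 1 and 6.15% without replicate 2.

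Shared windows at 50 and 150 nt were 7.38% and 5.74% for Hoxa3, 3.92% and 0.646% for Hoxc5, 60.2% and 55.4% for Hoxd3, 46.8% and 35.6% for Hoxd4, and 14.3% and 12.4% over all members; Hoxb4 had 0.238% at 50 nt. On either strand they were 20.7% for Hoxa3, 10.4% for Hoxa4, 49.7% for Hoxb3 and 23.9% over all members. With 2 libraries, leaving 1 out gives the other's TPM and no test. No paired analysis was possible because there is 1 group. Hoxc6 and Hoxd4, at 43 to 100.13 counts, have counting errors of 9.99% to 15.2%, so a difference of that size was not detectable.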

Other observations

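Of 16 noncoding RNA entries of the Hox clusters in the tables, 7 could be tested; by the exact binomial test 0 were called higher and 1 lower. Hotairm1, transcribed from the start of the HoxA cluster, had 40.57 and 45.16 TPM. Hoxaas2 and Hoxaas3, antisense to Hoxa3, had 26.12 and 26.27 TPM and 11.89 and 13.88 TPM. Hoxb3os had 19.45 and 20.52 TPM and Haglr, on the opposite strand with its 3′ end at the end of Hoxd3, had 9.63 and 10.53 TPM. Hoxb5os was the 1 called lower, with 8.38 and 3.68 TPM and a log2 ratio of -1.19 (SE 0.30; adjusted p = 0.000485 by the exact binomial test and 0.0364 by the edgeR exact test).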
